A study of Danio rerio with 6 samples.

Results

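Cytosolic ribosomal protein genes were followed in bulk RNA-seq libraries of whole zebrafish kidney. Every row whose gene symbol begins with rpl or rps and a digit, or is rpsa, rplp0, rplp1 or rplp2, was taken, and the rps6k kinases and the mitochondrial ribosomal protein genes were left out. The rule used no measured value and found 83 of the 32266 deposited genes. Of these, 78 encode structural proteins of the ribosome, 34 of the small subunit and 44 of the large subunit. Another 4 are diverged copies with "like" names (RPL22L1, RPL7L1, rps11l and rps27l), and 1, rps19bp1, is only named after a ribosomal protein that its product binds in human cells. All 83 passed the filter on low counts, so none was left out of the tests. Many symbols in the gene table follow human nomenclature, and some, such as RPL5 and RPS26, each stood for 2 genes, which are told apart here by their Ensembl identifiers. Of 77 structural proteins listed by name, 73 had a row under the rule. RPSA, RPL27A, RPL37A and RPL41 had none and enter no total here. The table's RPSA2 lies outside the rule by its symbol and is given apart below. Whether it is the zebrafish rpsa gene under another symbol was not resolved.

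The study compared kidneys of runx1-/- fish (del25 allele, hg97) with kidneys of their wild type siblings, all of strain EK and 2.5 months old. RUNX1 is a transcription factor of blood development. Adult fish make their blood in the kidney marrow, so a library holds RNA of renal tubules beside that of mature and immature blood cells. Kidneys were pooled by 3, and each genotype had 3 such pools. The pools hold different fish, and nothing further limits which cells lost runx1, since the allele was carried in the whole animal.

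The ribosome reads mRNA on its small subunit and joins amino acids on its large subunit, and each subunit is a shell of many small proteins on ribosomal RNA. Most of these proteins are needed in equal numbers, and in vertebrates their mRNAs begin with a pyrimidine tract that lets the cell raise or lower their translation together. Blood formation is sensitive to their dose: in people, loss of 1 copy of several of these genes, RPS19 first among them, causes Diamond-Blackfan anaemia, a failure of red cell production, and loss of 1 copy of RPS14 contributes to the anaemia of a myelodysplastic syndrome.

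The libraries held 16147770, 27480381 and 26644483 estimated counts in runx1 null pools 1, 2 and 3, and 26902889, 23821763 and 30577328 in wild type pools 1, 2 and 3. Wild type pool 1 stood apart. Its 10 highest genes took 41.5% of its counts, against 31.0% to 35.6% in the other 5 libraries, and its TMM scaling factor, which corrects a library for such composition, was 0.771 against 1.01 to 1.08. CPM values here are counts scaled to the library size times this factor. The factor of 0.771 thus raises every CPM value of wild type pool 1, markers included, above its unscaled level. Kidney tissue was recognised in every library by tubule markers (12 matched of 16 listed), none of them at 0 anywhere. They summed to 1949 to 4049 CPM in runx1 null pools. In wild type pools they summed to 485.4 to 3182 CPM, with the lowest sum in wild type pool 1. In that pool slc12a3 had 4.82 CPM and pax8 0.82 CPM, while trpm7, the only tubule marker highest there, had 67.5 CPM. Red cell markers (8 matched of 12 listed) summed to 57430 to 71780 CPM in runx1 null pools and 71340 to 125800 CPM in wild type pools, with the highest sum in wild type pool 1. Thrombocyte markers (6 of 8) summed to 476.2 to 569.7 CPM in runx1 null pools and 643.2 to 1328 CPM in wild type pools. Markers of stem and progenitor cells (12 of 13, with runx1 itself at 0 in 1 library) summed to 443.6 to 581.6 CPM in runx1 null pools and 435.1 to 1182 CPM in wild type pools. The sums of both lists were also highest in wild type pool 1. Most of the progenitor sum there came from tal1, at 492.3 CPM and also on the red cell list, and lmo2, at 355 CPM. The progenitor markers myb, at 180.2 CPM, and gfi1b, at 90.7 CPM, were also highest in that pool. Lowest there were meis1b, at 15.2 CPM, and gata2b, hhex and kita, at only 0.05, 0.19 and 0.92 CPM. For gata2b this was not particular to that pool. It had 0.05, 0.20 and 0.16 CPM in wild type pools and 1.62, 1.89 and 2.51 CPM in runx1 null pools. The neutrophil and B lymphocyte lists were lowest, among wild type pools, in wild type pool 1. Neutrophil markers (6 of 10) summed to 254.2 to 530.4 CPM in runx1 null pools and 373.3, 1626 and 932.4 CPM in wild type pools. The 530.4 CPM, in runx1 null pool 2, included 228.6 CPM of mmp9 alone. On this list lyz and npsn were lower in every runx1 null pool than in any wild type pool, while mmp9, nccrp1, ncf1 and srgn overlapped. B lymphocyte markers (9 of 9) summed to 2.14 to 118.8 CPM in runx1 null pools and 9.69, 43.0 and 23.6 CPM in wild type pools. Of the 118.8 CPM, in runx1 null pool 3, ighm alone gave 113.7 CPM. Liver markers (12 of 12), which mark a neighbouring organ, summed to 1585 to 25460 CPM in runx1 null pools. In wild type pools they summed to 201.4 to 26470 CPM, lowest in wild type pool 1. Most of the sum in wild type pool 3 came from the vitellogenin genes vtg1, at 17050 CPM, and vtg2, at 3382 CPM. The other liver markers were each higher in runx1 null pools 1 and 3 than in any wild type pool. In runx1 null pool 2 they lay between wild type pool 1 and the other wild type pools. For example, tfa had 7096, 662.4 and 10450 CPM in runx1 null pools and 21.65, 1756 and 2402 CPM in wild type pools. The targeted gene runx1 itself had 0, 0.17 and 0.19 CPM in runx1 null pools and 0.39, 0.20 and 0.21 CPM in wild type pools, too low in either genotype to check the labels.

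Together the ribosomal protein genes took a similar share of the library in both genotypes. Their summed counts made up 3.74%, 4.61% and 4.59% of the library in runx1 null pools 1, 2 and 3, and 4.73%, 4.28% and 4.05% in wild type pools 1, 2 and 3. The lowest share was in runx1 null pool 1 and the highest in wild type pool 1, while the other runx1 null pools lay between wild type pool 1 and wild type pool 2. The mean was 4.31 ± 0.50% in runx1 null kidneys and 4.36 ± 0.35% in wild type kidneys (SD, n = 3 each), a difference of -0.0421 percentage points that is smaller than the spread between pools. Without wild type pool 1 the wild type mean was 4.17% and the difference 0.146 percentage points. In whole kidney, fewer cells of a type and less RNA per cell cannot be told apart, and this holds for every level given here.

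On the TMM scale the picture in wild type pool 1 was different. The 83 genes summed to 36107, 42882 and 45330 CPM in runx1 null pools and to 61383, 40307 and 37690 CPM in wild type pools. Wild type pool 1 thus lay above all 5 other libraries, and the other 2 wild type pools lay within the range of the runx1 null pools. The mean was 41440 ± 4780 CPM in runx1 null kidneys and 46460 ± 13000 CPM in wild type kidneys (SD, n = 3 each), or 39000 CPM in wild type kidneys without pool 1. The part of the library's composition, or of red cell, thrombocyte, progenitor, neutrophil, B lymphocyte, tubule and liver RNA, in this difference was not tested.

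**Figure D1:**
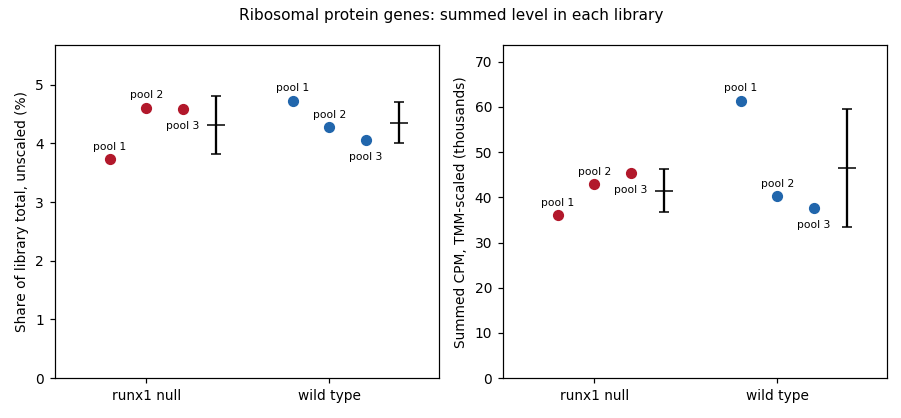
Summed level of the 83 ribosomal protein genes in each library, as percent of all counts (left) and as TMM-scaled CPM (right), for runx1 null (red) and wild type (blue) pools; bars show mean and SD of 3 pools. The shares lie between 3.74% and 4.73% with the genotypes mixed, while on the TMM scale wild type pool 1 stands alone at 61383 CPM.

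Gene by gene, no ribosomal protein gene passed the test. In edgeR's quasi-likelihood test with Benjamini-Hochberg adjustment over 18864 genes, 0 of the 83 passed an adjusted p of 0.05, and the background was equally empty at 0% of all genes tested. Their adjusted p-values ran from 0.811 to 0.994. At an unadjusted p under 0.05 the test found 0 of the 83, against 5.23% of all genes tested. DESeq2's Wald test, run as an alternative, also called 0 of the 83 at an adjusted p of 0.05 (smallest adjusted p 0.892) and found 0 at an unadjusted p under 0.05. Over all genes DESeq2 called 0.557% and found 6.76% at the unadjusted level. For 0 of the 83 did the 3 pools of one genotype all lie above the 3 of the other, against 12.5% of all genes tested.

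The log2 fold changes, runx1 null over wild type, had a median of -0.16, against -0.03 over all genes tested. They were negative for 74 genes and positive for 9, and ran from -0.48 to 0.20 among the genes given singly. The genes share the same 6 libraries, so their signs are not independent observations. Without runx1 null pool 1 the median shrank to -0.07, against -0.04 over all genes tested. Among the fits with 1 library left out, it turned positive only without wild type pool 1. Wild type pool 1 had the highest TMM-scaled value of all 6 libraries for 76 of the 83 genes. Without that pool the median was 0.05, against 0.03 over all genes tested, and 65 of the 83 fold changes were positive. In edgeR 1 gene, rps27l, then had an unadjusted p under 0.05, against 7.32% of all genes tested, and 0 of the 83 passed after adjustment. The genotypes then did not overlap for 3 of the 83, rps27l, RPS15A and the RPL5 gene ENSDARG00000020197, all higher in runx1 null pools, against 23.4% of all genes tested in either direction.

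On the TMM scale, with its factors taken as known, these data bounded the size of a change for most of the genes. The intervals leave out any error of the scaling itself. For 61 of the 83 the 95% interval of the edgeR fold change lay within 2-fold in both directions, which was so for 23.5% of all genes tested. Those genes were not matched to the set by their counts. Among the genes given singly, standard errors ran from 0.21 to 0.41 on the log2 scale, the lowest lower bound was -1.45, for RPL19, and the highest upper bound was 1.05, for rps27l.

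**Figure D2:**
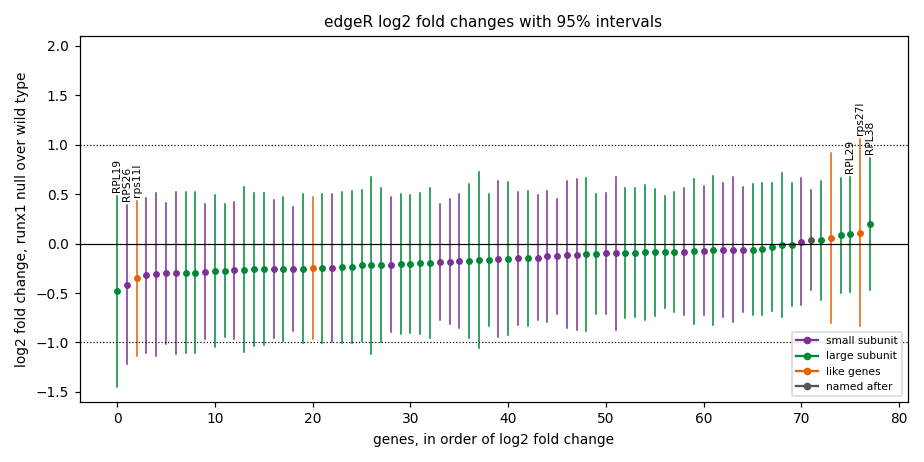
edgeR log2 fold change, runx1 null over wild type, of the 78 ribosomal protein genes given singly in order of size, with its 95% interval; colours mark the small subunit, the large subunit, the like genes and rps19bp1, and dotted lines mark 2-fold. Every interval crosses 0, and the points lie between -0.48 and 0.20.

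Small and large subunit genes gave similar medians. Of the 34 small subunit genes, 2 had a positive and 32 a negative fold change, with a median of -0.15 that became 0.04 without wild type pool 1. Of the 44 large subunit genes, 4 were positive and 40 negative, with a median of -0.16 that became 0.07 without that pool. Small subunit genes made up 37.6%, 36.1% and 36.7% of the structural counts in runx1 null pools and 36.4%, 37.3% and 37.1% in wild type pools. The genotypes overlapped in this ratio, which no library scaling can move, and their means of 36.8 ± 0.73% in runx1 null kidneys and 36.9 ± 0.51% in wild type kidneys differed by less than the spread between pools.

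Within the small subunit, RPS6, the protein that S6 kinases phosphorylate when growth signals are on, had 514.5, 692.7 and 749.5 CPM in runx1 null pools and 1116, 672.3 and 657.1 CPM in wild type pools. Its values outside wild type pool 1 overlapped, and its fold change was -0.32 (log2, SE 0.33). The gene rps27a, which makes ubiquitin joined to a ribosomal protein, had 502.3, 573.8 and 627.3 CPM in runx1 null pools and 1031, 587.3 and 496.6 CPM in wild type pools, with a log2 fold change of -0.31 (SE 0.35). RPS2, a protein near the mRNA entry of the small subunit and 1 of the 5 highest members by counts, had 901.8, 1193 and 1247 CPM in runx1 null pools and 1343, 1049 and 1105 CPM in wild type pools. Its lowest value was in runx1 null pool 1 and its highest in wild type pool 1, with a log2 fold change of -0.07.

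Among the large subunit genes with the highest counts was RPLP0, which carries the stalk that recruits translation factors. It had 2481, 3568 and 3203 CPM in runx1 null pools and 4809, 2830 and 2726 CPM in wild type pools. Its highest value was again in wild type pool 1, its lowest in runx1 null pool 1, and the other wild type pools lay between runx1 null pool 1 and pool 3. The means of 3084 ± 553 CPM in runx1 null kidneys and 3455 ± 1174 CPM in wild type kidneys (SD, n = 3 each) gave a log2 fold change of -0.16 (SE 0.38). The acidic proteins of the same stalk followed: RPLP1 had 536.6, 614.6 and 587 CPM in runx1 null pools and 797.1, 572.2 and 478.9 CPM in wild type pools. Its partner rplp2 had 89.4, 109.2 and 104.2 CPM in runx1 null pools and 125.9, 106.2 and 89.5 CPM in wild type pools. Both stalk genes had a log2 fold change of -0.09, with the runx1 null pools inside the wild type range, except that rplp2 in runx1 null pool 1 lay just under wild type pool 3.

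RPL4, which lines the tunnel through which the new protein leaves, had 1192, 1263 and 1351 CPM in runx1 null pools and 1615, 1260 and 1189 CPM in wild type pools. Its log2 fold change was -0.09, with a 95% interval from -0.75 to 0.56. RPL6, on the outer face of the large subunit, had 858.6, 1154 and 1140 CPM in runx1 null pools and 1693, 1088 and 997.6 CPM in wild type pools. The gene rpl7a had 822.9, 1148 and 1228 CPM in runx1 null pools and 1504, 961.2 and 980.5 CPM in wild type pools. In each of these genes wild type pool 1 was the highest library and the other wild type pools lay near or within the runx1 null range, with log2 fold changes of -0.26 for RPL6 and -0.11 for rpl7a.

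The most negative fold change was that of RPL19, a large subunit protein at the contact with the small subunit. It had 658.6, 825.2 and 866.5 CPM in runx1 null pools and 1746, 744 and 794.5 CPM in wild type pools. The value in wild type pool 1 was more than that of any other library, and the remaining wild type pools lay inside the runx1 null range. The mean was 783 ± 110 CPM in runx1 null kidneys and 1095 ± 565 CPM in wild type kidneys (SD, n = 3 each), a log2 fold change of -0.48 (SE 0.41, adjusted p = 0.811 in edgeR), which was 0.02 without wild type pool 1.

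The ribosomal proteins tied to inherited anaemia in people were examined as a list. The list follows the human disease but was chosen with earlier results of these data known. It matched 27 of the 83 genes, and 0 of these passed the edgeR test at either level. Over all genes tested, 0% passed at the adjusted and 5.23% at the unadjusted level. Of the 27, 1 had a positive and 26 a negative fold change, with a median of -0.17 that became 0.05 without wild type pool 1. RPS19, the gene most often mutated in Diamond-Blackfan anaemia, had 248.3, 319.5 and 361.8 CPM in runx1 null pools and 500, 332.6 and 311.7 CPM in wild type pools. Wild type pool 1 was highest, runx1 null pool 1 lowest, and the other pools overlapped. The means were 310 ± 57.4 CPM in runx1 null kidneys and 381 ± 103 CPM in wild type kidneys (SD, n = 3 each), with a log2 fold change of -0.30 (SE 0.30, 95% interval from -1.01 to 0.41, adjusted p = 0.817 in edgeR).

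RPL11 joins RPL5 and a small ribosomal RNA in a particle that, when ribosome assembly fails, holds back the p53 inhibitor MDM2. It had 434.3, 628.3 and 557.5 CPM in runx1 null pools and 954.1, 481.3 and 450.6 CPM in wild type pools. Outside wild type pool 1, the wild type values lay between runx1 null pool 1 and the other runx1 null pools, and the log2 fold change was -0.22 (SE 0.38) with that pool and 0.20 without it. The RPL5 gene ENSDARG00000020197 had 851.9, 925 and 906.8 CPM in runx1 null pools and 1218, 767.7 and 725.4 CPM in wild type pools, so all 3 runx1 null pools lay between wild type pool 1 and the other 2. Its log2 fold change was -0.01. The other RPL5 gene, ENSDARG00000015862, had 556, 573.7 and 675.4 CPM in runx1 null pools and 787.4, 573.8 and 557.7 CPM in wild type pools, with a log2 fold change of -0.09.

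RPS14, the small subunit gene of the myelodysplastic syndrome named earlier, had 379.7, 496.3 and 496.9 CPM in runx1 null pools and 587.4, 426.1 and 439.8 CPM in wild type pools. The genotypes overlapped, and the log2 fold change was -0.08. RPS26, which lies where mRNA leaves the small subunit and is also mutated in the human anaemia, has 2 rows. The gene ENSDARG00000030408 had 168, 312.9 and 267.6 CPM in runx1 null pools and 436.7, 269.7 and 292.8 CPM in wild type pools. It was lowest in runx1 null pool 1 and had the second most negative log2 fold change, -0.42 (SE 0.34, adjusted p = 0.811 in edgeR). The gene ENSDARG00000037071 had 155.5, 194.8 and 206.3 CPM in runx1 null pools and 253.4, 191.6 and 168.7 CPM in wild type pools, with a log2 fold change of -0.14.

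At the positive end of the genes given singly stood a few that were not highest in wild type pool 1, or were high in runx1 null pool 1. The like gene rps27l, given below, also stood at this end but was highest in wild type pool 1. RPL38, which in mouse embryos is needed to translate a subset of Hox mRNAs, had 317.5, 248.9 and 248.4 CPM in runx1 null pools and 289.5, 245 and 176 CPM in wild type pools. It was the only one of the 83 to be highest in runx1 null pool 1, and wild type pool 3 was lowest. Its means of 272 ± 39.7 CPM in runx1 null kidneys and 237 ± 57.2 CPM in wild type kidneys (SD, n = 3 each) gave a log2 fold change of 0.20 (SE 0.28, 95% interval from -0.47 to 0.86, adjusted p = 0.855 in edgeR). RPL29, a large subunit protein without which mice are small, had 192.6, 154.5 and 191.7 CPM in runx1 null pools and 195.9, 167.3 and 140.9 CPM in wild type pools, with a log2 fold change of 0.10. RPL10A, a large subunit protein of a movable stalk, had 395.3, 380.8 and 508.4 CPM in runx1 null pools and 413.7, 411.4 and 384.1 CPM in wild type pools. It varied little, by 1.34-fold from the lowest to the highest library, and its log2 fold change was 0.09.

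The like genes are copies whose proteins can replace or accompany a ribosomal protein. RPL22L1, which in mice rises when its relative RPL22 is lost, had 114, 84.1 and 113.5 CPM in runx1 null pools and 168.7, 107.4 and 94.5 CPM in wild type pools. RPL22, which in mice is needed for lymphocyte development, had 309.6, 396.6 and 394.9 CPM in runx1 null pools and 617, 373.4 and 326.6 CPM in wild type pools. Both were highest in wild type pool 1, with log2 fold changes of -0.25 for RPL22L1 and -0.26 for RPL22. The gene rps11l had 26.3, 43.8 and 32.9 CPM in runx1 null pools and 60.9, 37.9 and 32.7 CPM in wild type pools, with a log2 fold change of -0.35 (SE 0.33).

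RPL7L1, whose human protein takes part in ribosome assembly, ran the other way from most of the set. It had 19.8, 17.2 and 24.6 CPM in runx1 null pools and 11.4, 20.8 and 27.0 CPM in wild type pools, so wild type pool 1 was the lowest library and wild type pool 3 the highest. Its log2 fold change was 0.06. The gene rps27l, which in human cells is induced by p53, had 20.8, 22.3 and 22.3 CPM in runx1 null pools and 33.1, 14.7 and 12.8 CPM in wild type pools. The runx1 null pools lay close together between wild type pool 1 and the other 2 wild type pools. The log2 fold change of rps27l was 0.11 (SE 0.40) with all libraries and 0.65 without wild type pool 1 (unadjusted p = 0.0196, adjusted p = 0.616 in edgeR). The binding protein gene rps19bp1 was the flattest of the 83, with 18.3, 17.6 and 19.1 CPM in runx1 null pools and 17.9, 17.5 and 18.2 CPM in wild type pools.

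**Figure D3:**
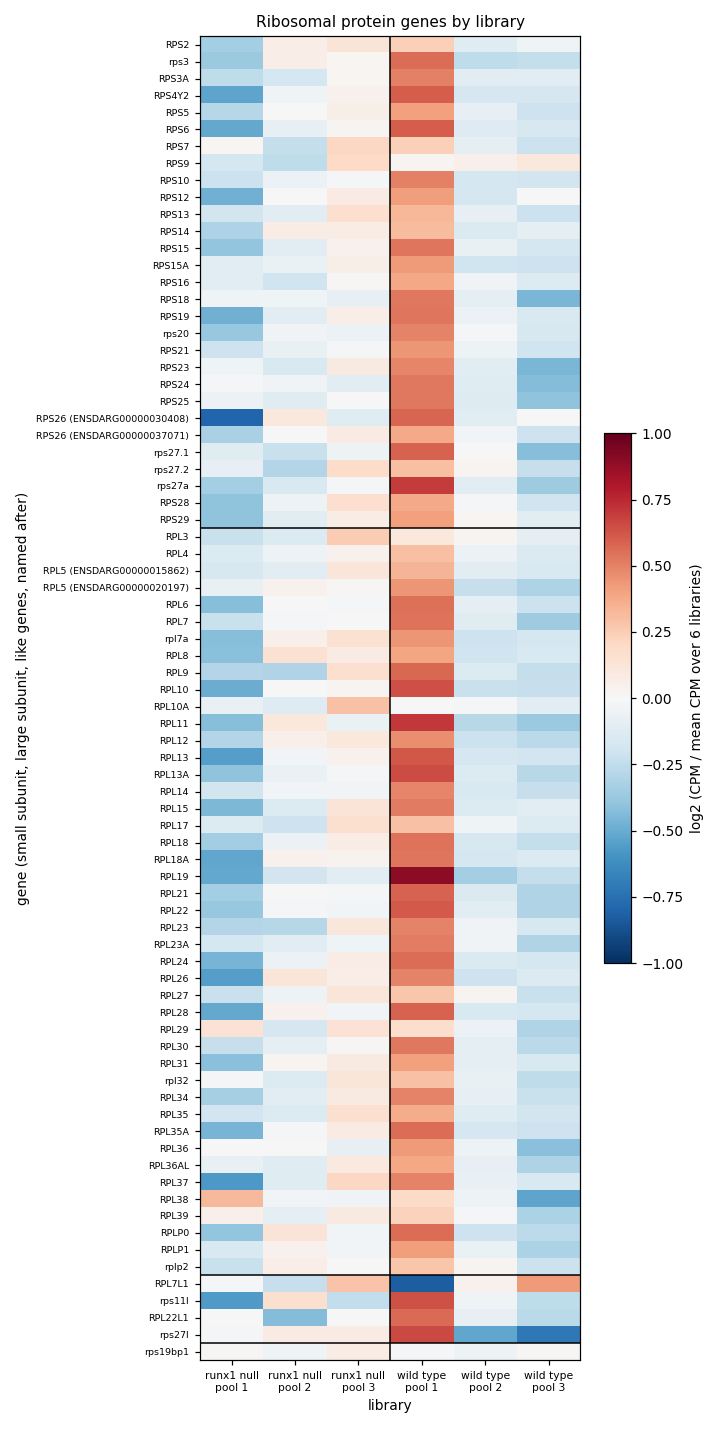
TMM-scaled CPM of each of 78 ribosomal protein genes in each library, as the log2 ratio to the gene's mean over 6 libraries; rows run from small subunit to large subunit, like genes and rps19bp1, columns from runx1 null pools to wild type pools. Wild type pool 1 is high across most rows, with a median ratio of 0.49, and runx1 null pool 1 is low across most rows, with a median of -0.28.

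The genes moved together from library to library. The median log2 ratio of a gene to its own mean over the 6 libraries was -0.28, -0.05 and 0.06 in runx1 null pools and 0.49, -0.10 and -0.21 in wild type pools. Around that median the genes scattered by an SD of 0.20, 0.13 and 0.12 in runx1 null pools and 0.24, 0.10 and 0.14 in wild type pools. The lowest of the 6 libraries was runx1 null pool 1 for 47 genes, wild type pool 3 for 25 and runx1 null pool 2 for 9. On counts scaled only to the library total, wild type pool 1 was highest for 40 of the 83 genes in place of 76, and runx1 null pool 1 lowest for 54. How many genes peak in wild type pool 1 therefore turns on the scaling.

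Some genes left the common course, and these were picked out after their values were seen. In wild type pool 1, relative to the median structural gene of that library, RPL10A lay at -0.52 on the log2 scale, RPS9 at -0.48 and RPL3 at -0.40, while RPL19 lay at 0.46, RPL11 at 0.24 and rps27a at 0.22. RPS9 had 315.2, 298.8 and 409.3 CPM in runx1 null pools and 364.6, 369.1 and 384.7 CPM in wild type pools, nearly flat in wild type. RPL3, a protein close to the site where peptide bonds form, had 802.6, 851.4 and 1115 CPM in runx1 null pools and 1006, 953.4 and 879.3 CPM in wild type pools. In runx1 null pool 1, RPL38 lay at 0.61, RPL29 at 0.42 and RPL39 at 0.32 against that library's median, and the RPS26 gene ENSDARG00000030408 at -0.47. That library had the fewest counts of the 6, and the part of depth in these departures was not tested.

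**Figure D4:**
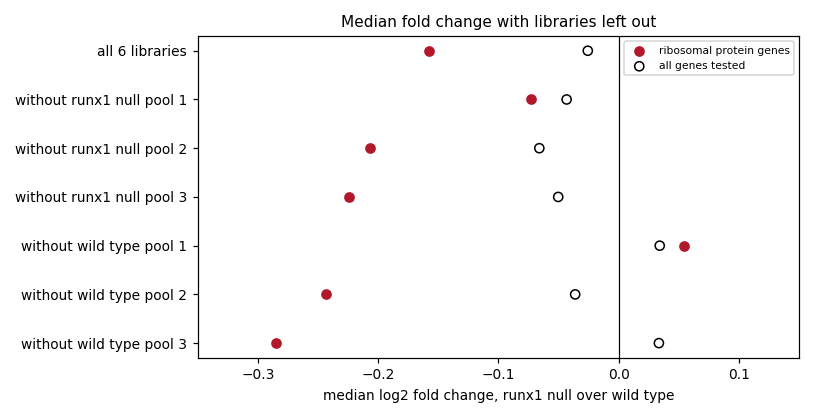
Median log2 fold change, runx1 null over wild type, of the 83 ribosomal protein genes (red) and of all genes tested (open circles), with all 6 libraries and with each library left out. The median of the ribosomal protein genes lies left of 0 in every fit, from -0.28 to -0.07, except without wild type pool 1, where it is 0.05.

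To look past the common movement, each library was scaled to the summed counts of its 78 structural genes, an alternative added after seeing the data. This moved the median fold change of all genes from -0.03 to 0.10 on the log2 scale. In edgeR's quasi-likelihood test on that scale, 0 of the 83 passed an adjusted p of 0.05 (smallest adjusted p 0.952) and 0 had an unadjusted p under 0.05, against 3.63% of all genes tested. The genotypes did not overlap for 6 of the 83 genes, 7.23%, against 9.8% of all genes tested, a share below the background. On this scale 41 of the 83 fold changes were positive. Scaling to these genes centres their own fold changes near 0, so a near-even split of signs follows from it and is no result.

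These 6, seen only in the data, were 4 small subunit genes that were lower and 2 large subunit genes that were higher in runx1 null kidneys. RPS19 made up 0.691%, 0.748% and 0.802% of the structural counts in runx1 null pools and 0.818%, 0.829% and 0.831% in wild type pools. RPS15, which lies near the decoding site, made up 0.558%, 0.571% and 0.603% in runx1 null pools and 0.625%, 0.623% and 0.621% in wild type pools. In both genes the wild type pools, pool 1 included, lay close together, and the runx1 null pools were spread below them. RPS6 made up 1.43%, 1.62% and 1.66% in runx1 null pools and 1.83%, 1.68% and 1.75% in wild type pools. The fourth, rps20, made up 1.18%, 1.26% and 1.17% in runx1 null pools and 1.27%, 1.36% and 1.32% in wild type pools. For RPS6 and rps20 the gap between the nearest pools of the 2 genotypes was smaller than the spread within each.

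On the higher side, RPL12, at the base of the large subunit stalk, made up 1.77%, 1.89% and 1.86% of the structural counts in runx1 null pools and 1.76%, 1.67% and 1.72% in wild type pools. The RPL5 gene ENSDARG00000020197 made up 2.37%, 2.17% and 2.01% in runx1 null pools and 1.99%, 1.91% and 1.93% in wild type pools. In both, the lowest runx1 null pool lay just above wild type pool 1. The relative log2 fold changes were -0.15 for RPS19 and 0.16 for that RPL5 gene, each with an adjusted p of 0.952 in edgeR.

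Genes that share a name or a base name were then compared as pairs, since their balance does not depend on how a library is scaled. The values are the second gene's share of the pair's counts. For the 2 RPL5 genes, ENSDARG00000015862 held 39.5%, 38.3% and 42.7% in runx1 null pools and 39.3%, 42.8% and 43.5% in wild type pools. For the 2 RPS26 genes, ENSDARG00000037071 held 48.1%, 38.4% and 43.5% in runx1 null pools and 36.7%, 41.5% and 36.6% in wild type pools. The RPS26 means of 43.3 ± 4.86% in runx1 null kidneys and 38.3 ± 2.83% in wild type kidneys (SD, n = 3 each) lay apart by about the spread between pools, and the pools overlapped.

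The gene rps27.2 held 34.4%, 32.7% and 37.4% of its pair with rps27.1 in runx1 null pools and 29.5%, 34.1% and 36.9% in wild type pools. In this pair wild type pool 1 was the lowest library, and the other wild type pools lay among the runx1 null pools. RPL22L1 held 26.9%, 17.5% and 22.3% of its pair with RPL22 in runx1 null pools and 21.5%, 22.3% and 22.4% in wild type pools, so the runx1 null pools lay on both sides of a narrow wild type range. The genotypes also overlapped in the pair of RPL7 with RPL7L1. The estimated counts divide reads between such copies by a model, so these balances carry an error that the pools do not show.

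**Figure D5:**
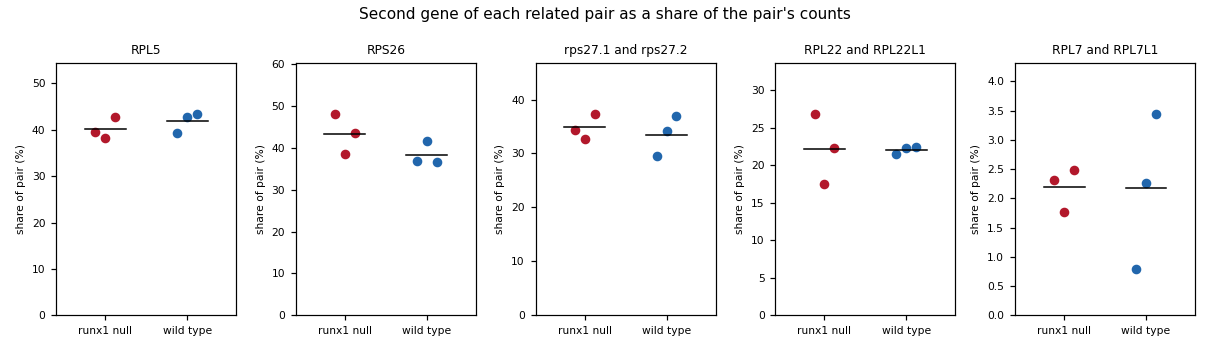
Share of each related pair's counts held by the second gene (percent, each panel from 0 on its own scale), in runx1 null (red) and wild type (blue) pools; lines are means of 3 pools. The genotypes overlap in all 5 pairs.

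Outside the rule stood the table's RPSA2 (ENSDARG00000019181), named after the small subunit protein RPSA, which had 1709, 2817 and 2197 CPM in runx1 null pools and 3829, 2271 and 2270 CPM in wild type pools. It too was highest in wild type pool 1 and lowest in runx1 null pool 1, with a log2 fold change of -0.32 (SE 0.38, adjusted p = 0.835 in edgeR). The totals and shares above leave RPSA2 out. Adding it, an unplanned alternative, gave a share difference of -0.0682 percentage points. Likewise outside the rule, rplp2l (ENSDARG00000011201), named after the stalk gene rplp2, had 176.9, 241.7 and 282.3 CPM in runx1 null pools and 312.9, 235 and 255.9 CPM in wild type pools, with a log2 fold change of -0.20 (SE 0.28).

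Other gene lists of the translation machinery were set beside the ribosomal proteins. Translation factors and other mRNAs with the same pyrimidine tract (33 genes with a row of 40 listed) gave 0 genes at an adjusted p of 0.05 and 0 at an unadjusted p under 0.05 in edgeR. Over all genes tested the shares were 0% and 5.23%. Of the 33, 7 had a positive and 26 a negative fold change, with a median of -0.24 that became 0.01 without wild type pool 1. The genotypes did not overlap for 3 of them, all lower in runx1 null kidneys, 9.09% against 6.24% of all genes tested in that direction. EIF4A2, an RNA helicase of translation initiation, had the most negative value, with 25.8, 28.3 and 24.6 CPM in runx1 null pools and 46.6, 42.3 and 27.15 CPM in wild type pools and a log2 fold change of -0.56 (SE 0.27). EIF3M, a subunit of an initiation factor, had 194.2, 227.6 and 174.5 CPM in runx1 null pools and 464.8, 210.6 and 180.8 CPM in wild type pools, again highest in wild type pool 1.

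Ribosome biogenesis factors, which cut and fold ribosomal RNA and carry the subunits out of the nucleus, were 96 genes with a row of 103 listed. In edgeR 0 passed an adjusted p of 0.05, against 0% of all genes tested. An unadjusted p under 0.05 was found for 2, both lower in runx1 null kidneys, against 2.66% of all genes tested in that direction. The genotypes did not overlap for 14 of the 96, 14.6%, against 12.5% of all genes tested. Of the 14, 11 were lower and 3 higher in runx1 null kidneys, against 6.24% of all genes tested in each direction. Scaled to the structural ribosomal protein genes, the count without overlap in either direction fell to 3 of the 96, against 9.8% of all genes tested on that scale. The median log2 fold change was -0.11, and it was -0.16 without wild type pool 1, so here the negative median did not rest on that pool. RCL1, which acts in small subunit rRNA processing, had the most negative value, with 22.0, 22.8 and 42.1 CPM in runx1 null pools and 51.5, 51.5 and 84.6 CPM in wild type pools. Every runx1 null pool of RCL1 lay below every wild type pool, and the log2 fold change was -1.11 (SE 0.37, unadjusted p = 0.0197, adjusted p = 0.811 in edgeR).

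DDX21, a nucleolar RNA helicase, had 48.5, 61.8 and 50.8 CPM in runx1 null pools and 162.6, 66.4 and 65.2 CPM in wild type pools, without overlap and with a log2 fold change of -0.87 (SE 0.41). NSA2, a large subunit assembly factor, had 234.4, 255.5 and 211.6 CPM in runx1 null pools and 886.1, 236.2 and 186.4 CPM in wild type pools, where only wild type pool 1 stood out. On the positive side npm1a, a zebrafish nucleophosmin gene, had 116.2, 65.0 and 126.7 CPM in runx1 null pools and 18.4, 81.8 and 96.6 CPM in wild type pools, lowest in wild type pool 1, with a log2 fold change of 0.65 (SE 0.60).

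Mitochondrial ribosomal protein genes, whose products build the separate ribosome of that organelle, numbered 73. In edgeR 0 passed an adjusted p of 0.05, against 0% of all genes tested, and 0 had an unadjusted p under 0.05, against 5.23%. Of the 73, 46 had a positive and 27 a negative fold change, with a median of 0.09 that was 0.12 without wild type pool 1. The genotypes did not overlap for 7, all higher in runx1 null kidneys, 9.59% against 6.24% of all genes tested in that direction. MRPL12, a large subunit protein, had the most positive value, with 20.4, 19.7 and 29.7 CPM in runx1 null pools and 8.39, 18.9 and 21.9 CPM in wild type pools, lowest in wild type pool 1, and a log2 fold change of 0.51 (SE 0.40). The difference between this list and the cytosolic genes was not tested.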

How the data were processed

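Whole-kidney RNA libraries were made with a TruSeq RNA Library Prep Kit v2, paired-end, per the labels' protocols. The authors deposited 1 table of expected counts per library, unscaled: 12.7% to 14.9% of nonzero values were not whole, and they were rounded here. The submitters' processing notes name STAR, RSEM, DESeq2 and build GRCz10, without their roles. The annotation release and the strand setting are not given in the sources used here, so overlapping antisense genes cannot be separated. Symbols came from a gene table that matched 26433 of 32266 identifiers. No transcript lengths were used. Fold changes compare levels within a gene, while rankings by CPM, marker sums and shares of counts also carry differences in length between genes.

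Under R 4.3.3, edgeR 4.0.16 tested runx1 null against wild type on all 6 libraries: filterByExpr (minimum count 10), TMM, quasi-likelihood F test, Benjamini-Hochberg adjustment over 18864 genes at 0.05. The standard error is the fold change divided by the square root of F. CPM is the count scaled to the TMM library size. A share is the summed deposited count over the library total, and has no test. The p-values set a genotype difference against the variation between these pools. The labels do not say how pools were chosen, so whether they represent other fish is not known.

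Named genes were the 6 most positive and 6 most negative fold changes, the 5 highest by CPM, anaemia-linked genes, stalk genes and paralogs, and up to 3 genes per direction from each other list. Of the 83 genes, 5 were counted in the set's totals and are not reported singly here, so 5 rather than 6 of the most positive are named. The genes, lists and rule were chosen with earlier results of these data known. Alternatives were DESeq2 1.42.0, its size factors, other filters (none, or a mean count of 50), TMM without the 50 highest genes or without the set, another quasi-likelihood method, unrounded values, the replicate number as a block, other share denominators and leaving out each library. Same-numbered pools hold different fish.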

Additional observations from a re-analysis of the deposited data

How the results depend on the processing

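No ribosomal protein gene passed an adjusted p of 0.05 in edgeR or DESeq2 under any alternative run. The share difference, runx1 null minus wild type, moved to -0.52 percentage points with the 10 highest other genes left out of the total, -0.585 with the 50 highest left out and -0.502 over the TMM library size. These shares have other denominators than the main share. On them wild type pool 1 was the highest library, at 8.04%, 9.30% and 6.14%, and the other wild type pools lay within the runx1 null range. For the main share, leaving out 1 library gave -0.192 to 0.246. Leaving out 1 library gave 0 to 1 gene at an unadjusted p under 0.05 (1, rps27l, without wild type pool 1), against 612 to 1437 of the 19316 to 19635 genes tested in these fits. It gave 0 to 6 genes with no overlap, against 18% to 27.7% of all genes tested in these fits: 6 without runx1 null pool 3, 2 without runx1 null pool 2 and 3 each without wild type pool 1 or 3. Scaling to the structural genes gave 6. The median log2 fold change ran from -0.285 (without wild type pool 3) to 0.0544 (without wild type pool 1), and the small subunit share difference from -0.521 to 0.203.

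Of 375 alternatives for the 25 named genes, 347 kept the sign and 28 reversed it, 26 of these by leaving out a library. The smallest adjusted p was 0.616. RPL5 (ENSDARG00000020197) turned to 0.0261 with a mean count of at least 50 and to 0.0267 with the replicate number as a block; the block gave 0 calls and a median of -0.138. Whether the numbers pair the pools was not tested. Same-numbered pools correlated at 0.0937, -0.364 and 0.456, with no value for other pools beside these. Ranges of the log2 fold change with 1 library left out, for genes that changed sign, were -0.70 to 0.0167 for RPL19, -0.51 to 0.0556 for rps27a, -0.23 to 0.35 for RPL7L1, -0.0543 to 0.14 for RPL10A, -0.0175 to 0.21 for RPL29, -0.13 to 0.65 for rps27l, -0.31 to 0.14 for RPLP0, -0.18 to 0.0409 for RPL4, -0.41 to 0.000168 for RPL6, -0.15 to 0.0663 for RPS2, -0.22 to 0.13 for rpl7a, -0.43 to 0.0571 for RPL22, -0.41 to 0.0303 for RPL22L1, -0.41 to 0.20 for RPL11, -0.26 to 0.0311 for RPS26 (ENSDARG00000037071), -0.24 to 0.13 for RPLP1, -0.18 to 0.0786 for RPL5 (ENSDARG00000015862), -0.20 to 0.0335 for rplp2, -0.17 to 0.07 for RPS14 and -0.15 to 0.25 for RPL5 (ENSDARG00000020197). The cause was not tested. With 3 pools a genotype and standard errors of 0.21 to 0.41 for the genes given singly, changes well under 2-fold were not detectable for most. Larger changes could also go uncalled, since edgeR called 0% of the 18864 genes tested at an adjusted p of 0.05. RCL1, at a log2 fold change of -1.11 (SE 0.37), had an adjusted p of 0.811 in edgeR.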
